A study of Homo sapiens with 10 samples.

Results

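HEK-293 cells that received one of a pair of siRNAs against the long non-coding RNA LINC00324 were compared with each other: 2 arrays of cells given siRNA 2 against 2 arrays of cells given siRNA 1. The 4 arrays were chosen by the siRNA named in their labels, out of 10 arrays in the series. HEK-293 is a human embryonic kidney cell line. The study asked whether long non-coding and circular RNAs act as sponges that bind miRNAs, and it measured small RNAs after silencing LINC00324 or LOC400043. Every group was transiently transfected with 10 nM siRNA and the RNAiMax lipid reagent, so the compared groups share the cell line, the dose, the reagent and the silenced target, and differ in the siRNA used. The 2 arrays of cells given a scramble siRNA are given as a reference level and are outside the contrast. Each group's arrays are labelled as biological replicates, with no word on separate cultures, and the spread behind each p-value is that between arrays, which may be technical. No probe set on the array carries the name LINC00324, so the silencing reached by either siRNA was not measured here, and the siRNA sequences were not used here.

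An siRNA is a short double-stranded RNA that guides Argonaute to cut a matching transcript. It can also pair through its seed with partly matching transcripts, as a miRNA does, and it enters the same Argonaute proteins as the cell's own miRNAs. A pair of siRNAs against 1 target therefore shares the intended transcript and not the other transcripts that each may bind. miRNAs are cut from hairpin precursors, and bases 2 to 8 of the mature strand, the seed, largely set which messenger RNAs they pair with. snoRNAs are another class of small RNA, cut mostly from introns of host genes. C/D box snoRNAs guide ribose methylation and H/ACA box snoRNAs guide pseudouridylation of ribosomal RNA, while scaRNAs do the same for spliceosomal RNAs.

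The sequences shown are those of both miRNAs that passed and of 9 others described in detail: 5 that came close to the threshold, both strands of miR-34a, and the seed partners miR-196b-5p and miR-181a-5p. They were chosen after their values were seen and are not a complete list by p-value. The sequences come from the authors' deposited table of human mature miRNAs, run 5′ to 3′, and carry the seed in capitals.
miR-7-5p: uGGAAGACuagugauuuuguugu
miR-708-5p: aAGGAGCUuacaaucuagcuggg
miR-218-5p: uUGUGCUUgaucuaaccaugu
miR-149-5p: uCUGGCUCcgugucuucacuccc
miR-3065-5p: uCAACAAAaucacugaugcugga
miR-34a-5p: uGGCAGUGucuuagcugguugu
miR-34a-3p: cAAUCAGCaaguauacugcccu
miR-196a-5p: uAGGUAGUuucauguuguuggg
miR-196b-5p: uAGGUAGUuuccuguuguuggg
miR-181a-5p: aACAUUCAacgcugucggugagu
miR-181b-5p: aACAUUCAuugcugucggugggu
Within this set miR-196a-5p and miR-196b-5p share a seed, as do miR-181a-5p and miR-181b-5p, and the other 7 seeds differ. Counted from 1 at the 5′ end and with miR-196a-5p named first, the miR-196 pair differs by A12C. With miR-181a-5p named first, the miR-181 pair differs by A9U, C10U and A21G.

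Small RNA levels were read as the authors' normalized log2 signals on Affymetrix miRNA arrays. Detected human probe sets were those with a 4-array mean above 1.30, a floor set at the 95th percentile of 2837 plant miRNA probe sets on the same arrays. That left 707 probe sets, of which 317 were mature miRNAs, 70 were miRNA hairpins and 320 were snoRNAs or scaRNAs, out of 1080, 1121 and 2334 on the array. The 2 arrays of siRNA 1 correlated with r = 0.973 and those of siRNA 2 with r = 0.971 across detected mature miRNAs, a description across probe sets of shared arrays. Against the cell line label, 21 of 30 miRNAs of the miR-17 clusters and 8 of 10 of the HOX clusters were detected, led by miR-20a-5p at a mean level of 12.9 and miR-10a-5p at 8.02. None of 8 muscle, 2 liver and 15 pluripotency miRNAs was detected. Of 13 blood cell miRNAs 6 were detected, none with a mean level above 2.29, and of 14 mesenchymal and endothelial miRNAs only miR-126-3p was. Neuronal and endocrine miRNAs were detected in 7 of 20, led by miR-132-3p at a mean level of 6.41, and epithelial miRNAs in 2 of 12.

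With siRNA 2, 2 mature miRNAs fell relative to siRNA 1, miR-7-5p and miR-708-5p, and no small RNA rose, by limma with Benjamini-Hochberg adjustment over all 707 probe sets at 0.05. That is 0.283% of the probe sets tested and 0.631% of the mature miRNAs. Short of that threshold the snoRNAs as a class lay higher with siRNA 2, in 283 of 320 probe sets with a median difference of 0.44 on the log2 scale, while the mature miRNAs were split, with 139 higher, 178 lower and a median of -0.05. An unadjusted p under 0.05 was reached by 118 probe sets with higher signal, 16.7% of all tested, and by 37 with lower signal, 5.23%, together 21.9%.

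miR-7-5p is a miRNA of neurons and endocrine cells whose best known partner is a circular RNA that binds it at many sites. Its log2 signal was 4.38 and 4.16 on the siRNA 1 arrays and 1.86 and 1.24 on the siRNA 2 arrays, with 4.10 and 3.81 on the scramble arrays. Both siRNA 2 arrays lay far below the other 4, 1 of them under the detection floor, and siRNA 1 lay beside scramble. The fall was by 2.72 ± 0.25 (SE, 2 arrays against 2) on the log2 scale, or 6.59-fold, with a limma adjusted p of 0.00448. Set to the floor where an array lay under it, the difference was -2.69. At a stricter floor of 3.81, the 99th percentile of the plant probe sets, miR-7-5p did not count as detected and was not tested. Over the alternative settings tried, the difference ran from -3.13 to -2.23 and its adjusted p from 0.000674 to 0.265. It passed in 14 of 17 settings. The exceptions were a spread taken from only the 4 compared arrays, one from the 6 scramble and LINC00324 arrays, and the omission of the first siRNA 1 array (adjusted p = 0.265, 0.0864 and 0.062).

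miR-7-5p can come from several precursor genes. RefSeq places MIR7-1 inside HNRNPK, the gene of an RNA-binding protein, and MIR7-3 inside the non-coding MIR7-3HG. The mature strand lies at chr9:83969811-83969834 on the minus strand for MIR7-1 and at chr19:4770700-4770723 on the plus strand for MIR7-3 (GRCh38.p14). The mature sequence in RefSeq is not the same as the one of 23 bases printed above. None of the 3 miR-7 hairpin probe sets was detected. The passenger strand miR-7-1-3p was near the floor, at 1.27 and 1.40 with siRNA 1 and 2.42 and 1.40 with siRNA 2, and its difference of 0.57 had an adjusted p of 0.537. No other detected miRNA carries the miR-7 seed. Of 20 neuronal and endocrine miRNAs 7 were detected, and miR-124-3p, miR-9-5p and miR-375 were not. The summed level of all 20, undetected ones included, was in log2 7.57 and 7.87 with siRNA 1 and 7.74 and 7.53 with siRNA 2, so that the groups overlapped. The brightest, led by miR-132-3p at a mean level of 6.41, weigh most in this sum. Of the 7 detected, miR-7-5p among them, 5 were lower with siRNA 2 and 2 higher, with a median of -0.02.

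miR-708-5p lies within TENM4, the gene of a teneurin cell adhesion protein, at chr11:79402077-79402099 on the minus strand (GRCh38.p14). Its log2 signal was 5.79 and 6.14 with siRNA 1, 4.38 and 4.29 with siRNA 2, and 5.48 and 5.68 with scramble. The siRNA 2 arrays were again the low ones, and the siRNA 1 arrays lay slightly above scramble. The fall was by 1.63 ± 0.22 (SE) on the log2 scale, 3.09-fold, with an adjusted p of 0.0309. Its direction was the same in all 18 settings tried, its adjusted p ran from 0.0126 to 0.265, and it passed in 9. Leaving out any 1 of the 4 compared arrays ended the call, with adjusted p of 0.062 and 0.174 without the first and the second siRNA 1 array and of 0.0956 and 0.119 without the first and the second siRNA 2 array. Its passenger strand and its hairpin were not detected. miR-28-5p, which shares the seed of miR-708-5p, had means of 3.78 and 3.01 with siRNA 1 and siRNA 2, and its difference of -0.77 ± 0.48 had an adjusted p of 0.388.

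The array also holds same-named probe sets for miRNAs of other vertebrates, which were not used in the test. They were matched by name only, and which human RNA each of them reads was not checked. Of 19 such miR-7 probe sets 17 were lower with siRNA 2, but 8 of the 19 had a 4-array mean under the floor. In 9 the mean of each siRNA group lay above the floor, and these differed by -2.77 to -0.57. In 8 of the 9 both siRNA 2 arrays lay below both siRNA 1 arrays, which held for 15.1% of the 707 human probe sets. In the other 2 the 4-array mean lay above the floor only through the siRNA 1 arrays, and the siRNA 2 mean lay under it. The macaque miR-7 probe set read 4.80 and 4.40 with siRNA 1 and 1.99 and 1.67 with siRNA 2. The cow probe set differed less, with 7.31 and 6.87 against 6.25 and 5.94, a difference of -0.99. For miR-708 all 9 probe sets lay above the floor in both groups and all 9 were lower with siRNA 2 without overlap, by -2.11 to -0.47. Probe sets of the same miRNA name therefore gave unequal differences, and the human value stands near the large end for miR-7. These probe sets share the arrays, and may share the target RNA, with the human ones and are not further replicates. The miRNAs they are given for, here and below, were picked by their human values on the same arrays. Their counts are therefore not separate support for the differences.

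**Figure D1:**
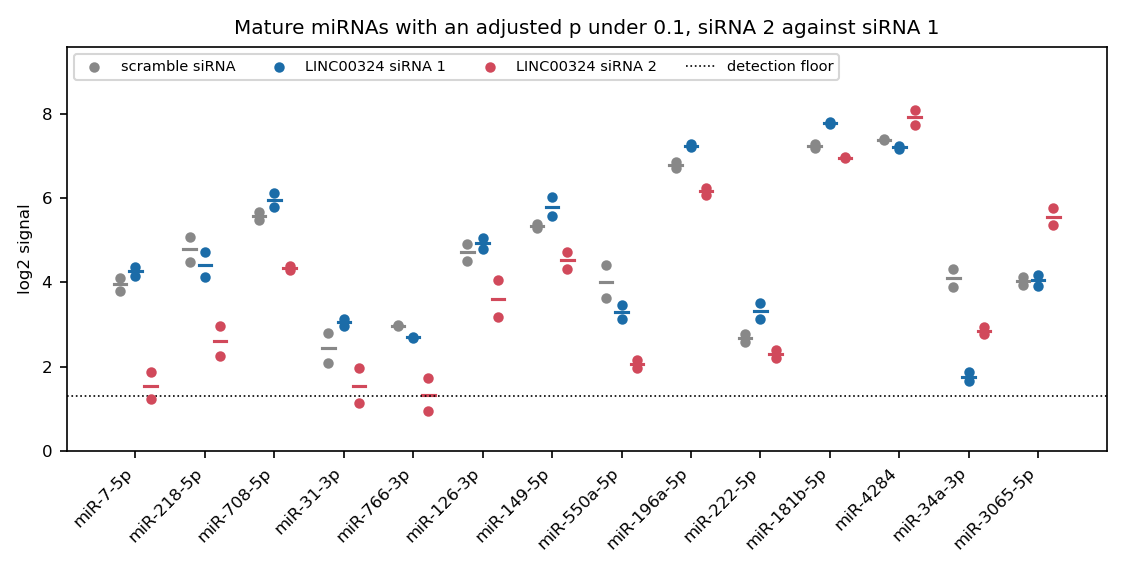
Log2 signal of the 14 mature miRNAs with an adjusted p under 0.1, ordered from the most negative to the most positive difference, on each scramble, siRNA 1 and siRNA 2 array (points, 2 per group, with bars at the group means) and the detection floor (dotted line). For miR-7-5p and miR-708-5p, which passed at 0.05, both siRNA 2 arrays lie below the other 4, and for miR-34a-3p both siRNA groups lie below scramble.

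A further 12 mature miRNAs had an adjusted p from 0.0594 to 0.094, and none of them passed. These 12 were taken up after their values were seen, and 9 of them were lower with siRNA 2. miR-218-5p, which RefSeq places inside SLIT2 and SLIT3, genes of secreted axon guidance ligands, had the largest difference among them. Its log2 signal was 4.14 and 4.71 with siRNA 1, 2.97 and 2.25 with siRNA 2, and 5.09 and 4.49 with scramble. The groups did not overlap, and the difference was -1.81 ± 0.32 with an adjusted p of 0.0623. All 20 miR-218 probe sets of other vertebrates were lower with siRNA 2 too, by -2.14 to -0.15. In 14 of them the groups did not overlap, and 15.1% of the 707 human probe sets were lower without overlap.

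miR-149-5p, from within GPC1, the gene of a cell surface proteoglycan, read 5.58 and 6.03 with siRNA 1 and 4.72 and 4.33 with siRNA 2, a difference of -1.28 ± 0.22 with an adjusted p of 0.0623. All 6 miR-149 probe sets of other vertebrates were lower, 5 of them without overlap, against 15.1% of the 707 human probe sets. The other strand of the same hairpin, miR-149-3p, read 8.66 and 8.63 against 8.61 and 8.67, a difference of -0.002 with an adjusted p of 0.999. The strands of 1 precursor therefore had unequal differences on these arrays. In the same way miR-222-5p was lower by -1.02 (adjusted p = 0.0641) and miR-222-3p by -0.29 (adjusted p = 0.282). For miR-31-3p the difference was -1.50 (adjusted p = 0.094) and for miR-31-5p it was -0.15 (adjusted p = 0.671). The siRNA 2 arrays of miR-31-3p read 1.96 and 1.14, the second of them under the floor. Set to the floor there, its difference was -1.43. The mouse probe set of miR-31-3p, the only one of another vertebrate above the floor, read 5.77 and 5.49 against 5.17 and 5.45, a difference of -0.32. In miR-550a both strands were lower, by -1.23 for the 5p strand and -1.53 for the 3p strand (adjusted p = 0.094 and 0.158), but the siRNA 2 arrays of the 3p strand were far apart, at 2.65 and 4.45. The chimpanzee and macaque probe sets of the 5p strand differed by 0.23 and -0.26, so that 1 of the 2 was higher with siRNA 2, and neither was lower without overlap.

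miR-196a-5p comes from the HOX clusters, where it targets HOX messenger RNAs. It read 7.29 and 7.23 with siRNA 1, 6.09 and 6.25 with siRNA 2 and 6.86 and 6.71 with scramble, so that siRNA 1 lay above scramble and siRNA 2 below it. The difference was -1.09 ± 0.17 with an adjusted p of 0.0594. miR-196b-5p, 1 base away, was lower by -0.63 ± 0.19 (adjusted p = 0.134). In the miR-181 family, miR-181b-5p read 7.78 and 7.82 against 6.99 and 6.95, a difference of -0.83 ± 0.20 with an adjusted p of 0.094. Its seed partner miR-181a-5p was lower by -0.22 ± 0.20 (adjusted p = 0.571). For miR-196a 11 of 11 and for miR-181b 20 of 20 detected probe sets of other vertebrates were lower without overlap. That held for 15.1% of the 707 human probe sets. Both miRNAs were picked by their human probe sets on the same arrays, so these counts are not separate support.

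The remaining lower ones were miR-766-3p, at -1.36, and the endothelial miR-126-3p, at -1.32, both with an adjusted p of 0.094. The siRNA 2 arrays of miR-766-3p read 1.73 and 0.94, the second of them under the floor. Set to the floor there, its difference was -1.18. The 2 probe sets of miR-766-3p from other primates differed by -0.44 and -0.33, with overlapping groups. For miR-126-3p the siRNA 2 arrays read 3.17 and 4.06 and the siRNA 1 arrays 5.07 and 4.80. Of 11 detected miR-126 probe sets of other vertebrates 8 were lower and 3 were not, with a range of -1.22 to 0.67. Only 2 were lower without overlap, against 15.1% of the 707 human probe sets. Of these 2, only 1 had the mean of each siRNA group above the floor.

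**Figure D2:**
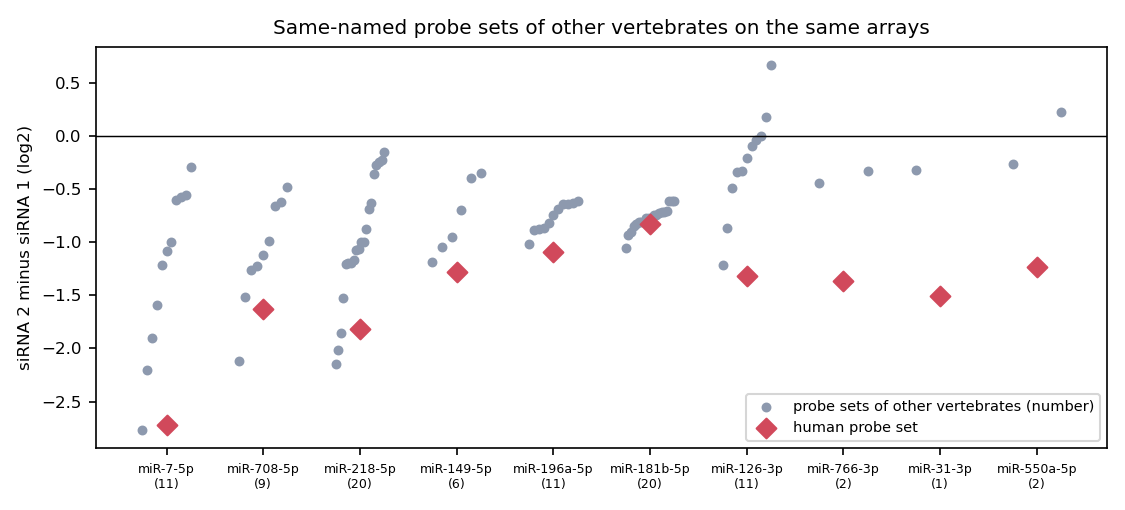
Difference of siRNA 2 minus siRNA 1 in mean log2 signal for the human probe set (diamond) and for the detected same-named probe sets of other vertebrates on the same arrays (points), for the 10 miRNAs of an adjusted p under 0.1 that have any, with the number of points under each name. For 2 of the 11 miR-7 points the siRNA 2 mean lies under the floor. For 10 of the 11 miR-126 points both group means lie above it. Every point lies below 0 for the first 6 miRNAs, miR-7-5p to miR-181b-5p, while for miR-126-3p 8 of 11 do, and for miR-766-3p, miR-31-3p and miR-550a-5p the points lie from -0.44 to 0.23, nearer 0 than the human values.

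miR-3065-5p had the largest higher value among the mature miRNAs named. It read 3.91 and 4.19 with siRNA 1, 5.77 and 5.36 with siRNA 2 and 4.13 and 3.93 with scramble, so that only the siRNA 2 arrays stood apart. The difference was 1.52 ± 0.26 with an adjusted p of 0.0623. Its gene lies within the span of AATK, a kinase gene, and overlaps that of MIR338, both taken by position without regard to strand. The mature strand lies at chr17:81125886-81125908 on the plus strand (GRCh38.p14). Neither miR-338-3p nor miR-338-5p was detected. The difference passed in 6 of 18 other settings, with an adjusted p from 0.0219 with mature miRNAs centred to 0.265 with the spread of only the 4 compared arrays. It did not pass with any 1 of the 4 arrays left out (0.119 to 0.174).

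Both strands of miR-34a, a miRNA induced by p53, were higher with siRNA 2 than with siRNA 1, and neither passed. miR-34a-5p read 6.16 and 6.65 with siRNA 1, 7.07 and 7.09 with siRNA 2 and 7.90 and 7.81 with scramble. miR-34a-3p read 1.86 and 1.66, 2.93 and 2.78, and 4.31 and 3.89 in the same order. On both strands the scramble arrays were highest and the siRNA 1 arrays lowest, with siRNA 2 between them. The differences of siRNA 2 minus siRNA 1 were 0.67 ± 0.21 (adjusted p = 0.134) and 1.10 ± 0.26 (adjusted p = 0.094).

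Of the other higher miRNAs, not all of which are given, miR-4284 differed by 0.71 (adjusted p = 0.094), miR-1972 by 1.23 and miR-3141 by 0.55 (adjusted p = 0.112 and 0.114). miR-22-3p, made from a non-coding host transcript, read 7.25 and 7.51 against 7.76 and 7.98, a difference of 0.49 with an adjusted p of 0.187. miR-885-5p, miR-1181, miR-4258 and miR-498 differed by 0.91, 0.58, 0.48 and 0.63 with adjusted p from 0.131 to 0.201. Several of these are rich in G and C. Among the 48 detected miRNAs with 70% or more of these bases, a bound set after the values were seen, 36 were higher with siRNA 2, with a median of 0.16, against 42 of 123 with under 50%, with a median of -0.15. The array's background control probes of the same high GC content also lay 0.12 higher with siRNA 2, against 0.01 for those under 50%, and the part of this shift in the miRNA values was not tested. The high GC class lay below scramble in both groups, by a median of -0.77 with siRNA 1 and -0.73 with siRNA 2. The medians of the background control probes of that GC content were lower than with scramble too, at 1.22 and 1.27 with siRNA 1 and 1.34 and 1.51 with siRNA 2 against 2.01 and 1.95, and their part in the miRNA values was not tested.

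By family, no member of the lists of mature miRNAs passed apart from miR-7-5p (1 of 7 detected neuronal and endocrine miRNAs) and miR-708-5p (1 of 5 at positions within the SLIT, TENM4, GPC1 and AATK genes). Several families were nonetheless lower as a group than the median of -0.05 over all mature miRNAs, as deposited, after quantile normalization and with snoRNAs centred; with mature miRNAs centred, where the median of all of them is 0.44, the medians of these families ran from -0.03 for miR-181 to 0.33 for miR-320. In let-7, which restrains proliferation and development genes, 7 of 8 members were lower with a median of -0.30, led by let-7c-5p with 5.81 and 6.38 against 5.07 and 5.21, a difference of -0.96 (adjusted p = 0.116). The member with the highest signal, let-7a-5p, read 8.26 and 8.11 against 7.98 and 7.83. All 5 detected miR-181 members, all 6 of the clusters that hold miR-23, miR-24 and miR-27, all 6 of the miR-99, miR-100 and miR-125 families, all 5 of the miR-320 family and all 4 of miR-221 and miR-222 were lower, with medians of -0.51, -0.21, -0.35, -0.16 and -0.45. In the miR-99 group, miR-99a-5p differed most clearly, with 6.07 and 6.12 against 5.10 and 5.54, a difference of -0.78 and an adjusted p of 0.112. Of the 8 HOX cluster miRNAs 7 were lower, with a median of -0.42, and of the miR-103, miR-26 and miR-148 families 6 of 7, with a median of -0.36.

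The miR-17 clusters, known drivers of proliferation, had 9 of 21 members higher and a median of -0.03. miR-20a-5p read 12.87 and 12.87 with siRNA 1 and 12.85 and 12.82 with siRNA 2, and miR-17-5p read 12.89 and 12.84 against 12.77 and 12.73. The intervals of these differences were not computed, and their standard errors were both 0.14. miR-15 and miR-16 had 7 of 9 members lower with a median of -0.15, and the miR-30 family 5 of 8 with a median of -0.14. In the miR-183 cluster 3 of 4 were lower, with a median of -0.47. The miR-130 and miR-301 family had 2 of 3 higher, with a median of 0.09. The imprinted 14q32 cluster and the chromosome 19 cluster were mostly undetected, with 3 of 66 and 2 of 57 probe sets above the floor.

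The miRNA hairpins gave no call, 0% of 70 by limma, and 2 had an unadjusted p under 0.05. The higher one was the mir-210 hairpin, at 0.76 and 1.32 with siRNA 1 and 1.56 and 2.07 with siRNA 2, a difference of 0.78 with an adjusted p of 0.157. The lower one was the mir-1301 hairpin, at 1.71 and 1.78 against 1.23 and 1.31, a difference of -0.48 with an adjusted p of 0.171. With mature miRNAs centred this log2 difference turned to 0.010, so that it was no longer lower. Both hairpins lay close to the detection floor. Over the class 44 of 70 were higher, with a median of 0.10.

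**Figure D3:**
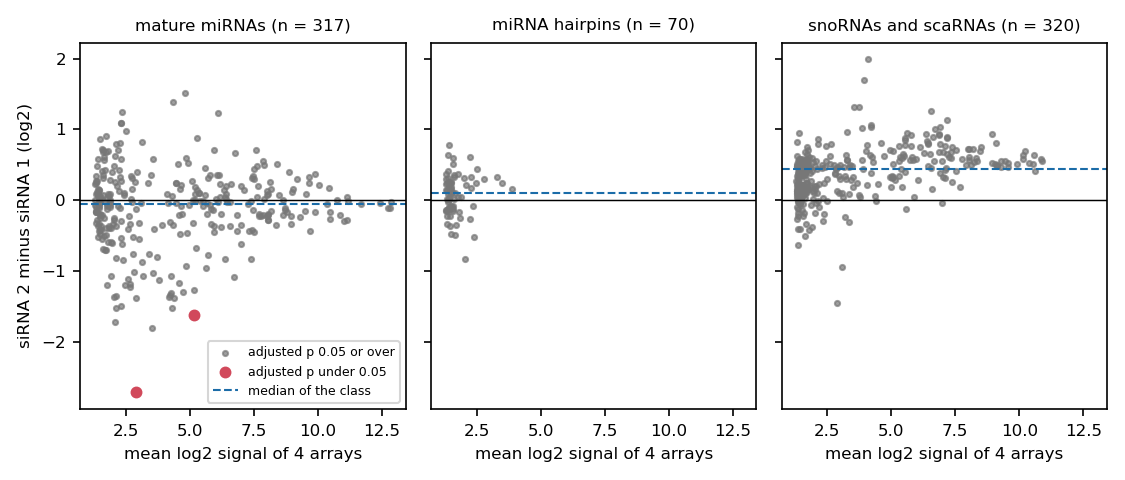
Difference of siRNA 2 minus siRNA 1 in mean log2 signal against the mean log2 signal of the 4 compared arrays, for 317 mature miRNAs, 70 hairpins and 320 snoRNAs and scaRNAs; red points passed at an adjusted p of 0.05 and dashed lines are class medians. The snoRNAs lie above 0 at nearly every level, with a median of 0.44, and the mature miRNAs spread around 0 with their long tail downwards.

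The snoRNAs and scaRNAs gave no call either, 0% of 320 by limma, although 105 had an unadjusted p under 0.05, 103 of them higher with siRNA 2. In 189 of 320 both siRNA 2 arrays lay above both siRNA 1 arrays, which held for 36.9% of all 707 probe sets, most of them these snoRNAs. The shift was present at every level and steadier where signals were bright. Of 199 snoRNAs with a mean level under 4, 165 were higher with a median of 0.29. Of 121 at 4 or over, 118 were higher with a median of 0.59, and all 32 at 8 or over were higher without overlap, with a median of 0.56. Mature miRNAs of the same brightness did not share it, with 18 of 48 higher at 8 or over and a median of -0.08. These bounds were set after the values were seen.

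The median over snoRNAs was 0.06 above scramble with siRNA 1 and 0.45 above it with siRNA 2, and these values share the scramble arrays. The 2 siRNA 1 arrays themselves differed, with the second 0.24 below the first over the median snoRNA, while the 2 siRNA 2 arrays differed by 0.04. Without the second siRNA 1 array 244 of 320 snoRNAs were higher and the median was 0.32. Without the first it was 299 of 320 and 0.55, and without either siRNA 2 array the median was 0.44 or 0.41. The number with an unadjusted p under 0.05 fell from 105 to 41 without the second siRNA 1 array. The plant probe sets, which serve as background, differed by 0.03.

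A list of snoRNAs that act in cutting the ribosomal RNA precursor, U3, U8, U13, U14 and U17, held 13 detected probe sets. It did not take in every detected U3 probe set, although all of those were higher. All 13 of the list were higher with siRNA 2, with a median of 0.65, and 12 had an unadjusted p under 0.05. Over all snoRNAs 88.4% were higher and 32.8% had such a p, and at a level of 4 or over 97.5% and 63.6%, with a median of 0.59, and the count of this list is to be read against those shares. U8, needed for the large subunit RNAs, read 5.25 and 4.97 with siRNA 1, 6.08 and 5.91 with siRNA 2 and 4.60 and 4.93 with scramble on 1 of its probe sets, a difference of 0.89 ± 0.32 (adjusted p = 0.183), and on the other the difference was 0.88 ± 0.28 (adjusted p = 0.142). U13 read 3.70 and 3.63 against 4.36 and 4.53, a difference of 0.79 ± 0.19 (adjusted p = 0.094). A U3 probe set labelled U3-2B had 6.54 and 6.21 against 7.21 and 7.62, a difference of 1.04 ± 0.22 (adjusted p = 0.094). The U3 probe sets target nearly identical copies and cannot be told apart.

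GAS5 and SNHG1 are non-coding host genes that carry many C/D snoRNAs in their introns, and their snoRNAs had counts and medians near those of snoRNAs at a level of 4 or over (97.5% higher, median 0.59). All 11 detected GAS5 probe sets were higher, with a median of 0.51, led by U75 with 8.55 and 8.39 against 9.25 and 9.55, a difference of 0.93 ± 0.22 (adjusted p = 0.094). The brightest of this host, a U44 probe set, read 10.55 and 10.30 against 10.88 and 10.78, a difference of 0.41 ± 0.23 (adjusted p = 0.335). All 11 SNHG1 probe sets were higher as well, with a median of 0.57, led by U25 with 8.75 and 8.64 against 9.54 and 9.46, a difference of 0.81 ± 0.20 (adjusted p = 0.094). Several probe sets of these lists read the same snoRNA, since the 11 of GAS5 cover 8 snoRNAs and the 11 of SNHG1 cover 7.

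The lowest p-values among the snoRNAs were for U49A and U35A. U49A, or SNORD49A within the host gene SNHG29, read 6.16 and 5.67 with siRNA 1, 7.16 and 7.18 with siRNA 2 and 5.85 and 6.17 with scramble, a difference of 1.26 ± 0.23 (adjusted p = 0.0641). U35A read 6.75 and 6.47 against 7.62 and 7.85, a difference of 1.13 ± 0.21 (adjusted p = 0.0699). In both the siRNA 1 arrays lay among the scramble values and only siRNA 2 stood above. snR39B, or SNORD2 within the translation factor gene EIF4A2, differed by 1.32 (adjusted p = 0.0829). These values are from the probe set of lowest p. The other snR39B probe sets differed by 0.78 and 0.69 (limma adjusted p = 0.094 and 0.319). Those of U49A differed by 1.00 and 0.93 (adjusted p = 0.131 and 0.154).

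Through RefSeq 202 of the 320 detected probe sets matched a snoRNA or scaRNA gene, and 199 of these lie within another gene. Grouped by that gene, all 6 probe sets of SNHG29 were higher with a median of 0.93, all 5 of RPL3 with 0.70, all 5 of NOP56 with 0.67, all 5 of RPL7A with 0.59 and all 5 of SNHG12 with 0.59. TAF1D had all 5 higher with a low median of 0.16. The EIF4A1 locus had 4 of 5 higher, from -0.10 to 1.07. NOP56 encodes a core protein of C/D snoRNA particles, and RPL3 and RPL7A encode proteins of the large ribosomal subunit. By name, 161 of 169 probe sets named U, HBII, snR or the like were higher, with a median of 0.52. Of those named ACA or SNORA 44 of 49 were higher, with a median of 0.23. These name groups are not the C/D and H/ACA classes. The first also holds H/ACA snoRNAs, such as U17a, U17b, U23 and U68, and the scaRNAs U89 and U93. The second also holds scaRNAs such as ACA26. Centring on the snoRNAs, which lowers every difference alike, turned the median of the 44 probe sets named ACA from 0.25 to -0.16 and that of TAF1D below 0, while GAS5 and SNHG1 stood at 0.11 and 0.16. The probe sets named U, HBII, snR or the like were also the brighter group, with array medians of 4.98 and 4.80 with siRNA 1. Those named ACA or SNORA had 1.75 and 1.59. The imprinted snoRNAs of 15q11 and 14q32 were nearly all undetected, with 3 of 87 and 3 of 60 above the floor.

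**Figure D4:**
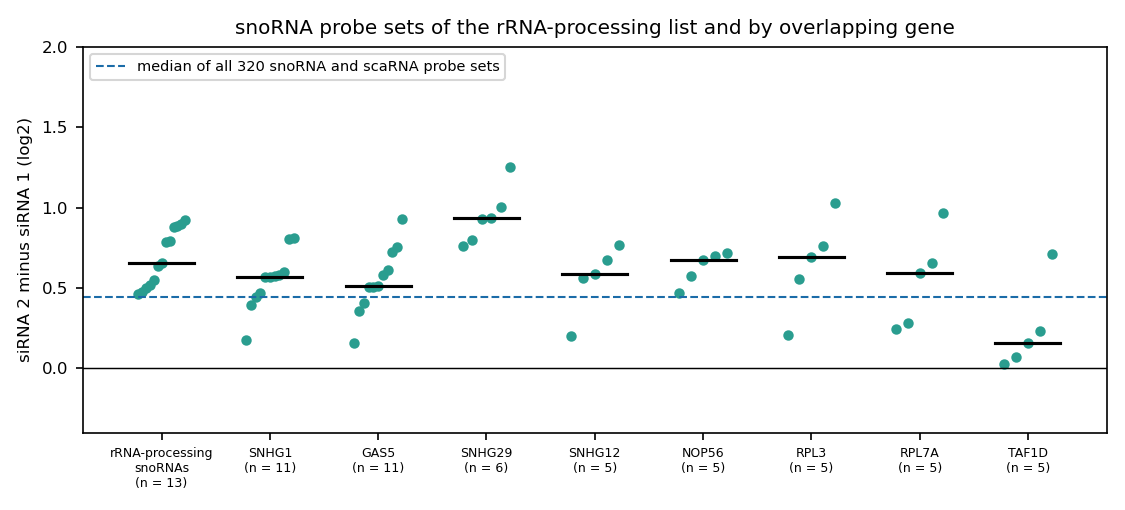
Difference of siRNA 2 minus siRNA 1 in mean log2 signal for each detected probe set (points) of the ribosomal RNA processing list and of snoRNAs within 8 genes, with the group median (bar) and the median of 0.44 over all 320 snoRNAs and scaRNAs (dashed line). As deposited, all groups shown lie wholly above 0, with the highest median for SNHG29 and the lowest for TAF1D; with snoRNAs centred TAF1D turns below 0.

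How far 1 class stands above another on the same array did not depend on a shift of the whole array, but the sign of a class did. As deposited, the median of all 707 differences was 0.16. Centring each array on the median of its mature miRNAs moved the median of all by 0.49 more, since those array medians were 4.22 and 4.15 with siRNA 1 and 3.54 and 3.85 with siRNA 2. Under it 208 probe sets were called higher and 4 lower, 166 of the higher ones snoRNAs, and the median of mature miRNAs turned to 0.44, with let-7 at 0.19. Centring on the snoRNAs moved the median of all by -0.41, with no call higher and 8 lower, the hairpin median at -0.30 and 171 of 320 snoRNAs higher with a median of 0.03. Quantile normalization left the medians at -0.20 for mature miRNAs and 0.30 for snoRNAs with 2 calls. Centring adds 1 constant per array and so cannot change the gap between the class medians; quantile normalization, which can, kept the snoRNA median above that of mature miRNAs. Under all scalings miR-7-5p and miR-708-5p were lower. The rRNA-processing snoRNAs had a median of 0.25 even when snoRNAs were centred.

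**Figure D5:**
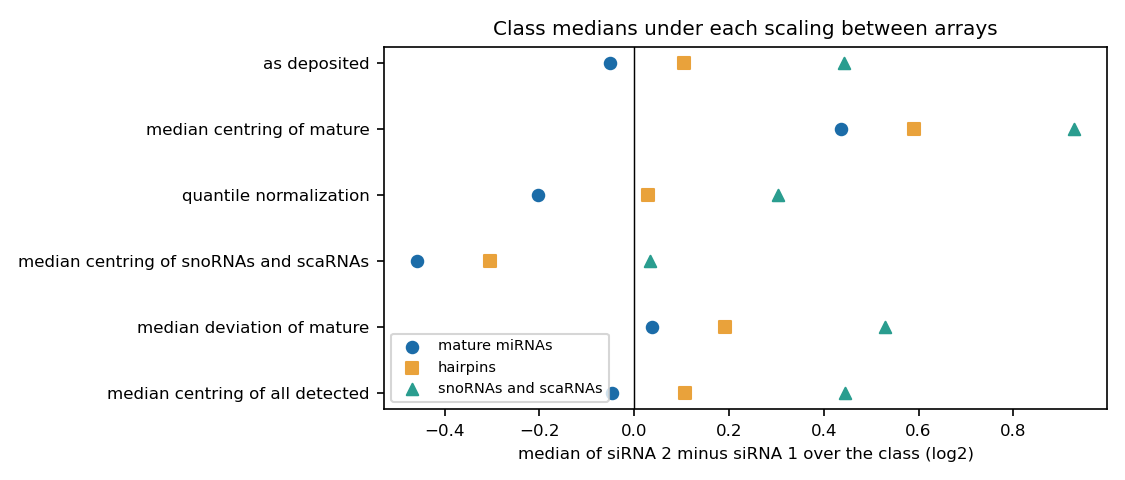
Median difference of siRNA 2 minus siRNA 1 on the log2 scale over mature miRNAs, hairpins and snoRNAs for the deposited values and 5 other scalings between arrays. The gap between the snoRNA and mature medians is fixed under all but quantile normalization, while the mature median runs from -0.46 to 0.44.

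The pair of siRNAs against LOC400043, which shares no array with this comparison, gives another case of siRNA 2 minus siRNA 1 for 1 target, in which the numbers are labels only. Over the same 707 probe sets 4 were called there, 0.566%, all mature miRNAs. They were miR-218-5p at 2.09 and miR-181a-2-3p at 2.16 (adjusted p = 0.0357 and 0.0323), and miR-34a-3p at -1.97 and miR-34a-5p at -1.38 (adjusted p = 0.0332 and 0.0357). Between the LINC00324 siRNAs these stood at -1.81, -0.51, 1.10 and 0.67, each with the other sign. miR-7-5p differed by 1.24 between the LOC400043 siRNAs and miR-708-5p by -0.74 (adjusted p = 0.107 and 0.197). The snoRNAs lay higher with siRNA 2 there as well, in 264 of 320 probe sets with a median of 0.32, and the mature miRNAs had a median of 0.00. Whether the pairs of siRNAs differ from each other was not tested.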

How the data were processed

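Total RNA was hybridised to Affymetrix miRNA arrays, 1 per sample, and 10 arrays were grouped by the siRNA in their labels, 2 per group. For 20706 probe sets the authors deposited log2 signals that were already normalized. Per the file headers, their separate tables for human mature miRNAs hold log2 signals, log2 fold changes and a p-value per miRNA; these gave names and sequences only, and the authors' p-values and fold changes were not used. The submitters' processing notes name limma. How background was corrected, how arrays were normalized and which build was used is not given in the sources used here. Scramble values differ between the authors' tables. The scramble and LINC00324 arrays were therefore taken to share 1 normalization run, and the LOC400043 arrays to come from another. No difference was taken across runs.

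limma 3.58.1 (R 4.3.3) fitted 1 mean per group over all 10 arrays on the deposited log2 values, so that other groups add only within-group spread (5 residual and 2.64 prior degrees of freedom, median SD 0.27). The contrast was siRNA 2 minus siRNA 1, with Benjamini-Hochberg adjustment at 0.05 over detected human probe sets of all classes. The script was tested on simulated data. For 2 arrays against 2 the smallest exact two-sided permutation p is 0.333, and no such test was used. The number of arrays limits the precision.

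Named were the mature miRNAs that passed and the next by p up to 12 per direction, 4 hairpins and 6 snoRNAs per direction, and the brightest or passing members of 30 lists; not all are printed. Members, lists and rules were chosen with earlier results of these data known. Positions and overlapping genes come from RefSeq (GRCh38.p14), which held a mature entry for 20 of 24 named miRNAs. The positions printed are those of mature strands, and overlap was taken by position without regard to strand. The table for LOC400043 also has 4 per-sample columns that matched no label and were not used. Another 20 human mature probe sets had no name in the tables and were left out. Python 3.11.15 with pandas 2.3.3 and matplotlib 3.10.9 drew the figures. Across the 707 probe sets, the differences between first and second array of siRNA 1 and of siRNA 2 correlated with r = 0.11. With 2 pairs the numbers were not taken to pair the arrays.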

Additional observations from a re-analysis of the deposited data

How the results depend on the processing

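The count of 2 calls over all human probe sets, both mature miRNAs, became 0 in both counts with the spread taken from only the 4 compared arrays or from the 6 scramble and LINC00324 arrays. It became 6 and 6 with no filter, 7 and 7 with each class alone, 47 and 15 with the 99th percentile floor (286 probe sets tested, without miR-7-5p) and 26 and 10 with a variance trend and robust moderation. Centring on mature miRNAs gave 212 and 36 calls, centring on snoRNAs 8 and 7, and both the median deviation of mature miRNAs and centring on all detected probe sets gave 1 and 1. These last 3 scalings were added after the data were seen. With the replicate number as a block both counts were 1. Leaving out 1 array gave 0 to 3 calls, 0 without the first siRNA 1 array and 1 without the second. Removing the GC trend gave 5 mature calls. The snoRNA count went from 0 to 167, 32, 16 and 1 with mature centring, the 99th percentile floor, the variance trend and snoRNA centring, and the hairpin count from 0 to 9 with mature centring. The 4 calls between the LOC400043 siRNAs became 2 with quantile normalization, the replicate block, snoRNA centring or centring on all, and 8 with a variance trend. The mature median turned from -0.05 to 0.44 with mature centring and 0.037 with the median deviation, and the hairpin median to -0.30 with snoRNA centring. Mature centring turned the log2 differences of the mir-1301 and mir-222 hairpins to 0.010 and 0.11. It turned those of ACA27 to 0.27 and of 2 unnamed snoRNA probe sets to 0.074 and 0.081. With snoRNA centring the difference of the mir-1308 hairpin turned to -0.083. Beyond the scalings, whose construction shifts whole arrays, and the filters, which change how many probe sets are tested, the cause was not tested. Signal over background limits values under 4.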
